A study of Mus musculus with 4 samples.

Results

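Heat shock proteins and their co-chaperones were examined in γδ T cells of mouse fat. The members were the rows of the deposited tables that carry a symbol beginning Hsp followed by a digit or by a, b, d, e or h, Hsf followed by a digit, or Dnaja, Dnajb or Dnajc, or the symbols Bag1 to Bag6. This gave 97 loci of 46799, with 95 distinct symbols, 9 of the loci being pseudogenes by symbol. The pattern reads names and no measured value, but it also takes in genes that are not chaperones, such as Hspbap1 and Hsf2bp. The family itself was chosen by a measured value, the gap in normalized counts of Hspa1a between libraries of one subset, which was known beforehand. The comparisons within a subset are therefore descriptions with no test, and counts of members called between subsets are given beside the background and read no further.

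Male C57Bl/6 mice carrying PLZF-GFP, a green fluorescent reporter of the transcription factor PLZF (gene Zbtb16), gave the cells, which were sorted out of epididymal fat. The mice were 16 to 22 weeks old with free access to food, and the labels name no treatment. Every column name also carries the code SFD, which no label explains. There were 2 libraries of cells with the reporter signal (PLZF+) and 2 of cells without it (PLZF-), each pooling 10 mice, with SMART-seq2 (whole-transcript cDNA from small cell numbers) as the library method. Both subsets come from reporter mice, so none of the 4 libraries is from mice without it. The columns are named A6 and B6 (PLZF-) and A7 and B7 (PLZF+). No label says what the letter or the digit stands for, and the codes carry no replicate number.

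Heat shock proteins are molecular chaperones that hold or refold other proteins. HSP70 proteins bind unfolded stretches with the help of J proteins (the Dnaj genes) and release them through nucleotide exchange factors such as the BAG proteins and the HSP110 proteins. HSP90 proteins act on partly folded clients such as kinases and receptors. In the cytosol the inducible members are switched on by the factor HSF1 within minutes of heat or other protein damage, through promoter sites called heat shock elements. The chaperones of the endoplasmic reticulum (ER) are instead raised by the unfolded protein response, through sites called ER stress response elements.

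Promoter sequences are shown first, because members with and without such sites are compared with their values further on. RefSeq gives a window on GRCm38.p6 (the assembly of mm10) for 45 of the 57 tested symbols, read here over the 250 bases before the start site and on both strands. A pair of inverted heat shock units was searched as GAANNTTC and as TTCNNGAA, and 3 units as GAANNTTCNNGAA, which overlaps both. Of 32851 such windows, 6.69% held the first, 7.17% the second and 0.466% the 3 units. The ER stress response element was searched as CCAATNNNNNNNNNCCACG and was in 0.113%. A match describes letters and is not a shown binding site. Only exact matches were searched, so a missing match does not show that a site is absent. A marked site can also be longer than its capitals. Capitals mark the matches, and sequences run 5′ to 3′ on the gene's strand. For Hspa1a and Hsp90b1 the stretch before the annotated exons is printed, and for the others the site with its flanks.
Hspa1a (chr17:34972157-34972406, minus strand): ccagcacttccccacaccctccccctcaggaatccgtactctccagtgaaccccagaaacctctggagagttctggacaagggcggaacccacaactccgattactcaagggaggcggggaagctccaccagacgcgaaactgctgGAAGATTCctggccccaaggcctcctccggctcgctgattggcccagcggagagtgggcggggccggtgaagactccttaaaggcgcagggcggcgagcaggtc
Hspe1 (chr1:55088053-55088082, plus strand): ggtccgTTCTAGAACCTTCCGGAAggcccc
Hsph1 (chr5:149636351-149636380, minus strand): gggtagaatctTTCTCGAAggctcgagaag
Dnajb6 (chr5:29735844-29735873, plus strand): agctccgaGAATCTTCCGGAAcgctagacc
Hspa5 (chr2:34772020-34772049, plus strand): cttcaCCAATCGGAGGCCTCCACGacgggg
Hsp90b1 (chr10:86705510-86705694, minus strand): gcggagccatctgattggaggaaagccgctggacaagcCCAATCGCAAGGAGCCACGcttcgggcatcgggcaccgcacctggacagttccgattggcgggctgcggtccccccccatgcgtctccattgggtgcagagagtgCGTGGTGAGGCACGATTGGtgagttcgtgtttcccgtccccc

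Values are the authors' normalized counts unless FPKM is named. The value of 1 read was 1.69 normalized counts in A6, 1.22 in B6, 0.619 in A7 and 0.558 in B7, and the estimated depth was 744571, 981883, 1837510 and 2035065 reads without the rRNA precursor Rn45s. Rn45s was listed at 0 in B7 and took 26.8% to 33.2% of the other libraries, so an exact 0 can be a failed estimate. Among loci of at least 50 in each of the other libraries, 3 were listed at 0 in B7 (both Rn45s rows among them) and 0 in A6, B6 or A7. Zbtb16, the reporter's gene, had 153.5 and 285.4 in A6 and B6 and 1216 and 1127 in A7 and B7, so it follows the labels. The 10 measured γδ T cell genes of a fixed list summed to 1496 and 2574 in A6 and B6 and to 12845 and 11655 in A7 and B7.

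Of the 97 loci, 59 had a mean of at least 10 and were tested. Of the other 38, 21 were listed at 0 in every library, 6 of them pseudogenes, and 17 were low. The small heat shock protein gene Hspb1 had 1 estimated read in B7 and 0 elsewhere. Bag3, an HSF1-induced partner of HSP70, had 1 and 0 reads in A6 and B6 and 9 and 23 in A7 and B7. It was thus at 1 read or none in PLZF- libraries, and B7 was above A7. Of the heat shock factors, Hsf3 and Hsf5 were listed at 0 throughout, and Hsf4 had 3 reads in B6 alone.

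The inducible cytosolic chaperones differed most between libraries of one subset, with the A library above the B library in both subsets. Hspa1a encodes an inducible HSP70 (chromosome 17, 34969190 to 34972156, mm10). It had 278.4 normalized counts in A6, 14.63 in B6 and 127.0 in A7, and was listed at 0 in B7. Its level was thus high in both A libraries and low or 0 in both B libraries, and the subsets overlapped. The ratio of A6 to B6 was 19.0, from 165 and 12 estimated reads, and A7 had 205 reads where B7 was listed at 0.

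Hspa1b, the neighbouring copy of this HSP70 (34956436 to 34959238), showed the same order. It had 141.7 in A6, 2.439 in B6, 77.42 in A7 and 0 in B7. The ratio of A6 to B6 was 58.1, from 84 and 2 reads (95% counting interval 15.6 to 488, which covers counting error only). The open reading frames of the 2 genes are 99.4% identical and their 250 upstream bases 98.8%, so reads of one can be counted for the other, and the split between them is uncertain. Both upstream windows hold GAANNTTC once, and in Hspa1a it lies 96 bases from the start site. Hspa1l, an HSP70 gene beside them, had 1 read in B6 and 1 in A7.

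Hsph1, an HSP110 nucleotide exchange factor for HSP70 (chromosome 5, 149614287 to 149636376), had 985.2 in A6 and 71.96 in B6, a ratio of 13.7. In PLZF+ cells it had 262.0 in A7 and 78.13 in B7, a ratio of 3.35. The B libraries of the 2 subsets thus lay close together, while the A libraries stood apart from them and from each other. Its site TTCNNGAA lies 46 bases from the start site.

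Dnajb1, the J protein partner of inducible HSP70 (chromosome 8, 83608193 to 83612653), had 447.1 and 103.7 in A6 and B6 and 134.4 and 31.81 in A7 and B7. The A to B ratio was 4.31 in PLZF- and 4.23 in PLZF+ cells, so it was nearly the same in both. Hsp90aa1, the inducible cytosolic HSP90 (chromosome 12, 110690605 to 110702728), had 1056 and 269.5 in A6 and B6 and 411.9 and 184.7 in A7 and B7, ratios of 3.92 and 2.23. Its value in A7 lay above B6 and below A6. No exact match to a heat shock pattern was found in the Dnajb1 window, and imperfect sites were not searched.

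Hspe1 encodes the co-chaperonin of mitochondrial HSP60 (chromosome 1, 55088132 to 55091307). It had 111.3 and 43.91 in A6 and B6 and 95.38 and 46.32 in A7 and B7, ratios of 2.54 and 2.06. Its window holds the pattern of 3 heat shock units in 2 overlapping matches. They form a run of 18 bases, 71 bases from the start site. Hspd1, the HSP60 gene, lies head to head with it and had 219.3 and 178.1 in A6 and B6 and 161.7 and 97.10 in A7 and B7. The ratios of Hspd1, 1.23 and 1.66, were smaller than those of Hspe1 in both subsets. Both rows carry the same deposited span, 54978065 to 55126283, which covers both genes.

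**Figure D1:**
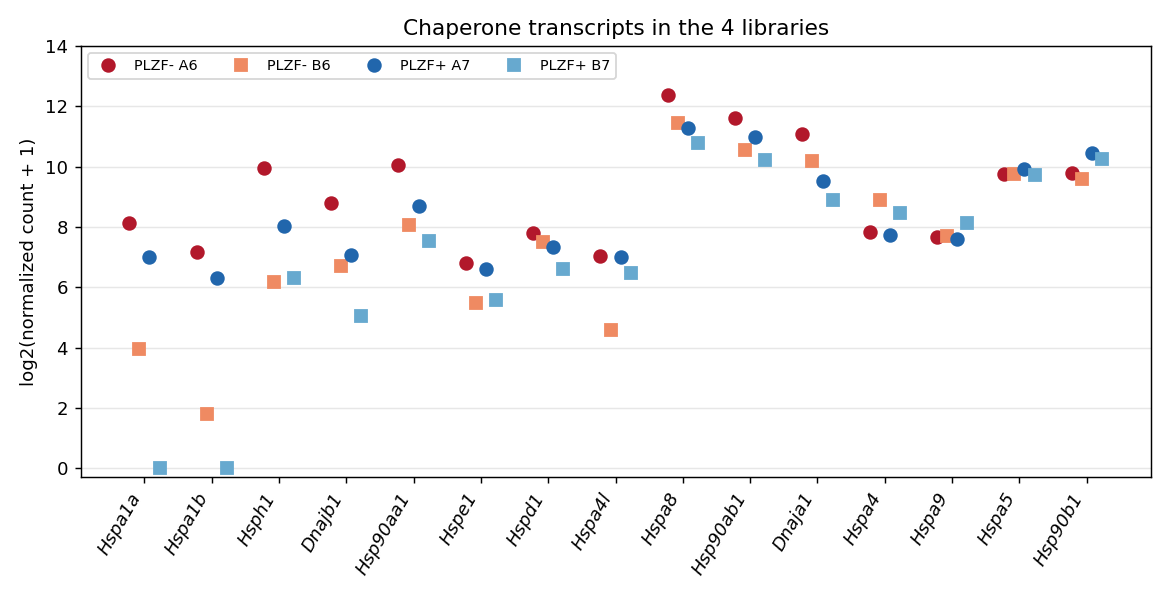
Levels of 15 chaperone transcripts in the 4 libraries, as log2(normalized count + 1), with circles for A and squares for B libraries. From Hspa1a to Hspe1 both circles lie above the square of their subset, while the 4 points of the ER chaperone Hspa5 lie together.

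These 6 genes (Hspa1a, Hspa1b, Hsph1, Dnajb1, Hsp90aa1 and Hspe1) were the members at least 2-fold higher in the A than in the B library of both subsets on log2(normalized count + 1), where 2-fold is a difference of 1. They are 6 of 59 tested members, against 2.03% of all 9501 tested loci. No member was at least 2-fold higher in the B library of both subsets, against 1.83% of loci. Together the 6 had 3020 normalized counts in A6, 506 in B6, 1108 in A7 and 341 in B7. That was 0.240%, 0.0423%, 0.0974% and 0.0300% of the total without Rn45s. At 4-fold, 5 members were higher in A6 than B6 (3.50% of loci) and 1 was lower (4.61%). Likewise 4 were higher in A7 than B7 (2.16%) and 2 were lower (2.04%).

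The other members past 4-fold in one subset did not reach 2-fold the same way in the other. Hspa4l, an HSP110 relative, had 129.9 and 23.17 in A6 and B6 but 127.0 and 87.05 in A7 and B7. Dnajb4, a cytosolic J protein, had 64.11 and 39.03 in A6 and B6 and 29.11 and 3.348 in A7 and B7. Dnajc21, a J protein of ribosome assembly, had 3.374 in A6 and 20.73 in B6, or 2 and 17 reads, and 25.39 and 26.23 in A7 and B7. In PLZF+ cells Hspbap1 had 6.813 in A7 and 32.37 in B7, against 21.93 and 15.85 in A6 and B6. The smaller of 2 Dnajc5 loci had 1.858 and 12.28 in A7 and B7 and 20.24 and 13.42 in A6 and B6. Dnajc17 (5.061 and 18.29 in A6 and B6) and Bag1, a nucleotide exchange factor (9.290 and 32.92 in A7 and B7), came short of 4-fold. Dnajc21, Hspbap1, Dnajc17, Bag1 and this Dnajc5 locus had between 2 and 59 reads per library, so their ratios rest on few reads.

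**Figure D2:**
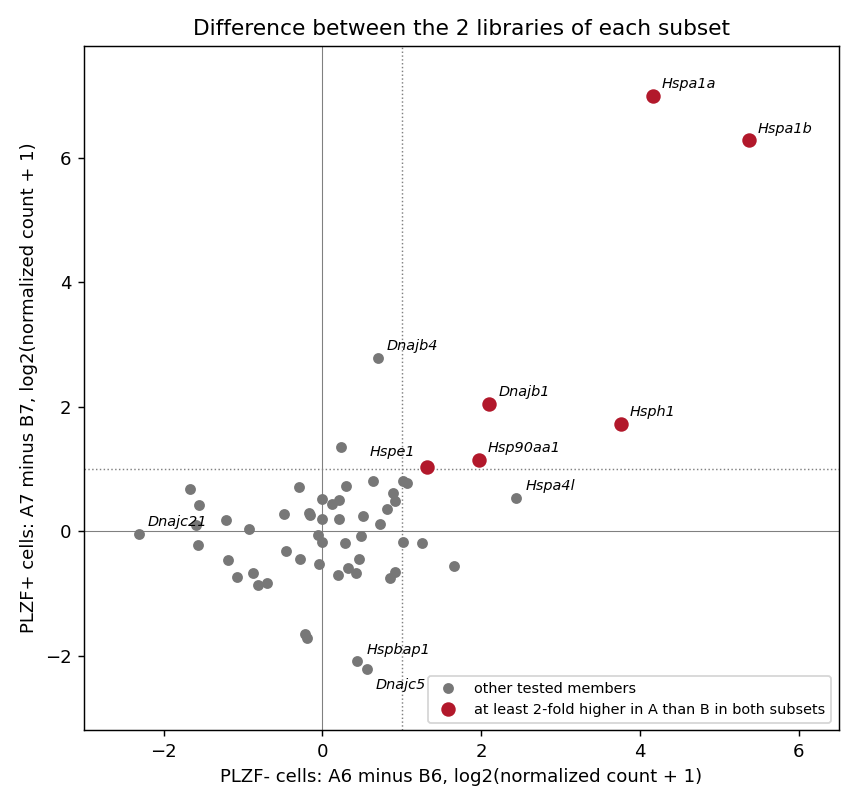
Each point is one of the 59 tested members, with the difference A6 minus B6 in PLZF- cells on the horizontal axis and A7 minus B7 in PLZF+ cells on the vertical axis, both on log2(normalized count + 1), and dotted lines at 1. The 6 red members lie past 1 on both axes, with Hspa1a at 4.16 on the first axis and Hspa1b at 5.37 and 6.29.

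Across the 59 tested members the 2 within-subset differences had a Pearson correlation of 0.64, and of 0.33 without Hspa1a and Hspa1b. Across all 9501 tested loci it was 0.06. The 2 differences share no library, but members share reads and lie in common pathways, so these values only describe the libraries. The median difference over the members was 0.23 for A6 minus B6 and 0.12 for A7 minus B7, beside 0.03 and 0.02 over all tested loci. In all, 22 members were higher in the A than in the B library of both subsets (27.6% of loci) and 14 lower in both (24.7%).

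The abundant cytosolic chaperones showed smaller gaps in the same direction. Hspa8, the constitutive HSP70 (chromosome 9, 40800984 to 40810087), had 5257 and 2786 in A6 and B6 and 2481 and 1773 in A7 and B7, ratios of 1.89 and 1.40. Hsp90ab1, the constitutive HSP90, had 3124 and 1503 in A6 and B6 and 2032 and 1183 in A7 and B7, ratios of 2.08 and 1.72. Dnaja1, a J protein partner of Hspa8, had ratios of 1.86 and 1.53. Hspbp1, an HSP70 binding protein, had 94.47 and 46.34 in A6 and B6 and 81.76 and 46.32 in A7 and B7, so both B libraries were alike. Hspa4, another HSP110 protein, ran the other way, with 224.4 and 476.9 in A6 and B6 and 210.6 and 349.9 in A7 and B7.

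Of 9 tested ER members, 0 were at least 2-fold higher in both A libraries, beside 2.03% of all tested loci, and the median differences were 0.21 and 0.12. Hspa5, the ER HSP70 known as BiP, had 865.4 and 869.6 in A6 and B6 and 964.3 and 844.9 in A7 and B7. Hsp90b1, the ER HSP90, had an A to B ratio of 1.16 in PLZF- and 1.15 in PLZF+ cells. Hspa9, the mitochondrial HSP70, had 200.8 and 206.1 in A6 and B6 and 195.1 and 280.1 in A7 and B7. These 3 genes differed by less than 1.5-fold between libraries of a subset. Other ER members differed more in 1 subset. Dnajb12, an ER membrane J protein, had 74.23 and 30.49 in A6 and B6 and 25.39 and 29.02 in A7 and B7. Dnajc1 was 1.65-fold higher in A6 than B6, and Dnajb11, a J protein partner of BiP, was 1.60-fold higher in B7 than A7. The window of Hspa5 held the ER stress response element once and that of Hsp90b1 held it in 2 places, printed above. Neither held an exact match to a heat shock pattern.

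Of the 6 genes higher in both A libraries, 5 had a promoter window. GAANNTTC was in those of Hspa1a, Hspa1b and Hspe1 and TTCNNGAA in those of Hspe1 and Hsph1. Of the other 40 members with a window, GAANNTTC was in Dnaja1, Dnajb6 and Dnajc27 and TTCNNGAA in Dnajb6 and Dnajc10. Dnajb6, a J protein gene whose window holds all 3 units, had 200.8 and 202.5 in A6 and B6 and 134.4 and 152.9 in A7 and B7. Dnajb6 held the pattern in 1 match (13 bases). Of the 5, Hspe1 alone held the pattern of 3 units, in 2 overlapping matches (a run of 18 bases). Hspa1a, Hspa1b, Hsph1 and Dnajb1 had larger gaps than Hspe1 in both subsets and no match to 3 units. The windows of Hspa1a and Hspa1b are 98.8% identical, so they are not separate cases. Whether such sites bear on the gaps was not tested. The ER stress response element was in Dnajc3, Hsp90b1 and Hspa5 and in none of the 5.

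Partner genes outside the member symbols were read from fixed lists. Of 23 tested HSP90 and HSP70 partners, 1 was at least 2-fold higher in the A library of both subsets, beside 2.03% of all tested loci. This was Ahsa2, a relative of the HSP90 activator Ahsa1. It had 190.9 and 58.88 in A6 and B6 and 122.6 and 53.57 in A7 and B7. The HSP70-HSP90 linker gene Stip1 had 332.3 and 140.3 in A6 and B6 and 174.7 and 102.1 in A7 and B7. The HSP90 co-chaperone gene Chordc1 had 401.5 and 151.2, then 151.1 and 121.1. Among the members themselves, the 4 tested HSP70 exchange factors and binding proteins outside the BAG list (Hsph1, Hspa4, Hspa4l and Hspbp1) had medians of 1.72 and 0.67, the 4 tested BAG genes -0.86 and 0.14, and the 2 tested heat shock factors, Hsf1 read there from a row shared with Dgat1, 0.15 and -0.70. The median difference of the partner list was 0.27 in PLZF- and 0.43 in PLZF+ cells. It was -0.03 and -0.09 for 13 TRiC and prefoldin genes, -0.04 and 0.15 for 24 ER folding genes, and -0.09 and -0.21 for 34 proteasome genes. None of these 3 lists had a gene 2-fold higher in both A libraries, beside the same 2.03% of loci.

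Immediate early genes, which are known to respond within minutes to many stimuli, differed between letters in PLZF+ cells. Their median difference was -0.05 in PLZF- and 0.43 in PLZF+ cells, beside 0.03 and 0.02 over all tested loci. Of 32 tested, 0 were at least 2-fold higher in both A libraries, beside 2.03% of all tested loci. Fos had 435.2 and 1010 in A6 and B6 and 323.3 and 296.3 in A7 and B7, and Jun had 153.5 and 152.4, then 114.6 and 51.90. Other measures also differed between letters. Markers of plasmacytoid dendritic cells summed to 1429 in A6 and 760 in B6, and to 36 and 61 in A7 and B7. Markers of natural killer and innate lymphoid cells summed to 4987 and 4406, then 257 and 158. Their part in the heat shock values was not tested.

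**Figure D3:**
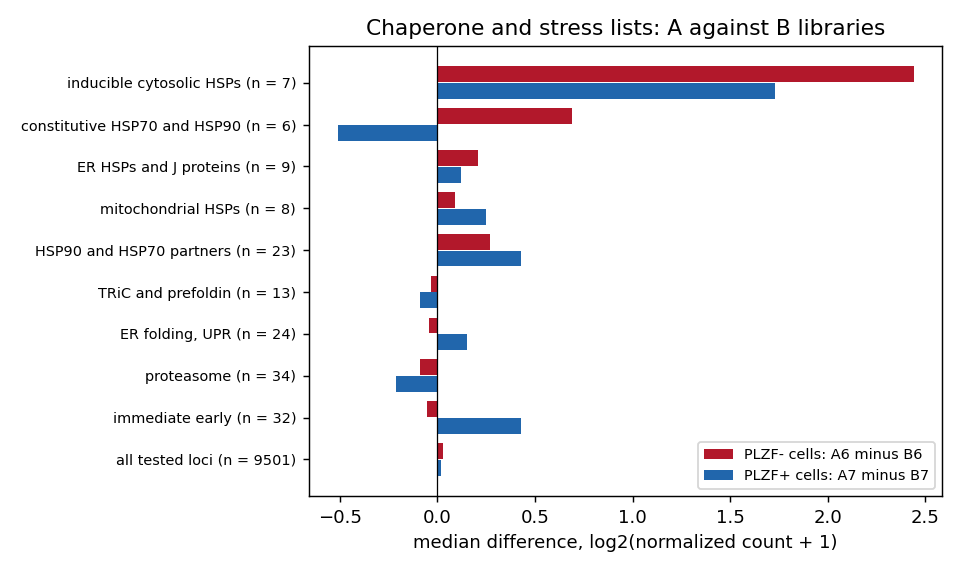
Median difference between the A and the B library of each subset, on log2(normalized count + 1), for lists of chaperone and stress genes and for all tested loci, with the number of tested genes in brackets. The list of inducible cytosolic members has medians of 2.44 and 1.73, and the other lists drawn lie between -0.51 and 0.69. It holds Hspa1a, by whose gap the family was chosen, so its medians were partly set by the choice. Of its 10 genes 7 passed the filter, Hspa1a and Hspa1b through their A libraries. Bag3, which did not pass, was higher in B7 than A7. The short lists of BAG factors, heat shock factors and other HSP70 exchange factors are not drawn.

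Between subsets, Dnaja1, Dnajc15 and Hspa2 were lower and Hsp90b1 higher in PLZF+ cells. That is 3 lower and 1 higher of 59 tested members, beside 4.98% and 2.55% of all 9501 tested loci by the same test (limma, Benjamini-Hochberg adjusted over all loci, threshold 0.05). The 6 genes higher in both A libraries did not pass. They were picked by a gap within each subset, which enters the SE of this test. Their failure to pass was thus partly set by the choice. At an unadjusted p under 0.05 in either direction, 10 members passed, beside 20.5% of loci. The median log2 fold change of the members was -0.05, and -0.03 over all tested loci. Both PLZF+ libraries lay below both PLZF- libraries for 14 members (27.3% of loci) and above them for 9 (24.0%). In bulk samples, fewer cells of a type and less RNA per cell cannot be told apart.

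Dnaja1 (chromosome 4, 40722150 to 40737149), whose locus also carries the microRNA gene Mir207, had 2152 and 1160 in A6 and B6 and 732.0 and 477.9 in A7 and B7. All PLZF- values lay above all PLZF+ values. The log2 fold change was -1.42 ± 0.29 (SE, limma adjusted p = 0.012). The call was lost without A6 (-0.97, adjusted p = 0.16), A7 (-1.72, 0.055) or B7 (-1.11, 0.28).

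Dnajc15, a J protein of the mitochondrial inner membrane (chromosome 14, 77820681 to 77875125), had 84.35 and 71.96 in A6 and B6 and 17.34 and 6.138 in A7 and B7. PLZF- libraries averaged 78.2 ± 8.76 and PLZF+ libraries 11.7 ± 7.92 (SD over 2 libraries). On the log2 scale the fold change came to -2.79 ± 0.64 (limma adjusted p = 0.018). It was not called without A6 (adjusted p = 0.18), B6 (0.098) or B7 (0.21), though its value stayed between -3.47 and -2.11.

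Hspa2, an HSP70 best known from the testis (chromosome 12, 76404176 to 76406938), had 50.61 and 40.25 in A6 and B6 and 3.716 and 6.138 in A7 and B7. These were 30 and 33 reads against 6 and 11. The log2 fold change was -2.99 ± 0.78 (limma adjusted p = 0.035), and leaving out any of the 4 libraries gave -3.29 to -2.69 with an adjusted p of 0.11 to 0.23. The deposited locus of this symbol spans 76340701 to 76439491 and so covers neighbouring genes. Those of Hspe1, Hspd1, Hsp90ab1 and Dnaja1 also run well past the gene.

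Hsp90b1 (chromosome 10, 86690209 to 86705509), at a locus shared with Gm15344, had 885.7 and 764.7 in A6 and B6 and 1400 and 1222 in A7 and B7. PLZF- libraries averaged 825 ± 85.6 and PLZF+ libraries 1310 ± 126 (SD over 2 libraries), a log2 fold change of 0.67 ± 0.18 (limma adjusted p = 0.045). Without any one library the adjusted p was 0.093 to 0.52, at a log2 fold change of 0.56 to 0.77. In the fixed list of 24 tested ER folding and unfolded protein response genes, 3 rose and 1 fell, beside 2.55% and 4.98% of all tested loci. The disulphide isomerase Pdia6 rose by 1.15 ± 0.30 on the log2 scale (limma adjusted p = 0.033). The oxidase Ero1l and the ER stress sensor Atf6 rose by 1.30 ± 0.36 and 1.27 ± 0.29 (limma adjusted p = 0.049 and 0.019). The sensor Ern1, known as IRE1, had 986.9 and 711.0 in A6 and B6 and 138.1 and 156.3 in A7 and B7 (log2 fold change -2.50 ± 0.25, limma adjusted p = 5.6e-05). Hspa5 had a log2 fold change of 0.06 ± 0.18 and did not pass (limma adjusted p = 0.90).

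Of the 7 tested inducible cytosolic members, Dnaja1 passed and the other 6 did not. Of those 6, Hspa4l alone had a positive value, 0.92 ± 0.66 on the log2 scale (limma adjusted p = 0.48). The log2 fold change of Hspa1a was -2.55 ± 3.57, of Hspa1b -1.32 ± 2.78, of Hsph1 -0.89 ± 1.87, of Dnajb1 -1.70 ± 0.92 and of Hsp90aa1 -0.95 ± 0.81 (limma adjusted p = 0.77, 0.84, 0.85, 0.38 and 0.60). Since B7 was listed at 0 for both Hspa1 genes, their values move with the pseudocount: at 0.25 and 4 they were -3.51 and -1.66 for Hspa1a and -2.15 and -0.76 for Hspa1b. Without B7 the value of Hspa1a was 0.95 and that of Hspa1b 1.82, and without A6 that of Hspa1b was 1.36, that of Hsph1 0.98 and that of Hsp90aa1 0.03. Hspa8 had a log2 fold change of -0.87 ± 0.27 (limma adjusted p = 0.098). Leaving out B6 gave -1.33 (adjusted p = 0.034), A6 -0.41 (0.39), A7 -1.11 (0.23) and B7 -0.63 (0.57).

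**Figure D4:**
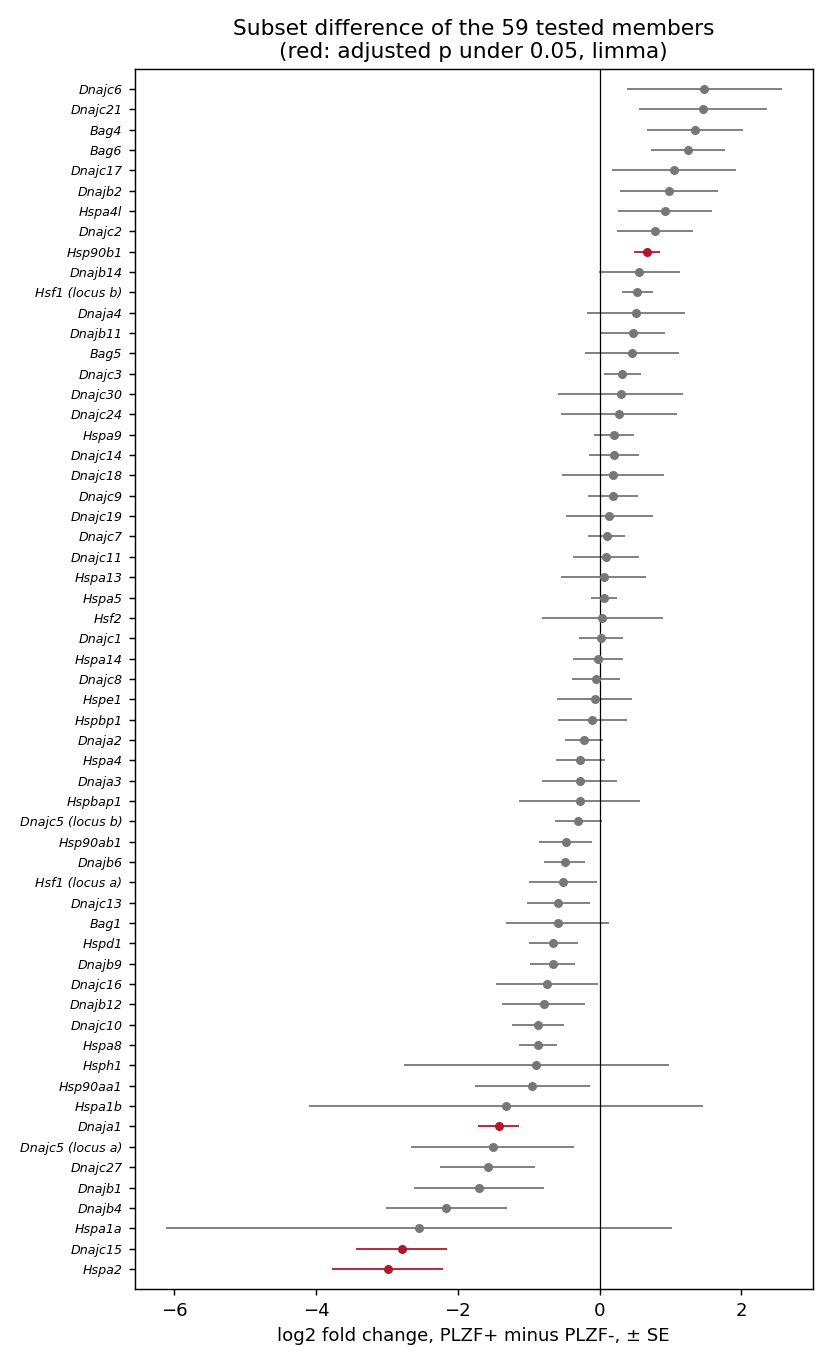
Log2 fold change between PLZF+ and PLZF- libraries for the 59 tested members, with bars of 1 SE from limma, ordered by value, where locus a of Hsf1 is the lower of its 2 rows. The 4 members with an adjusted p under 0.05 are red, and the widest bars belong to Hspa1a, Hspa1b and Hsph1.

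With the column letter as a term in the same model, a setting in which A libraries are compared with A and B with B, 10 members were lower and 1 higher in PLZF+ cells, beside 7.18% and 4.47% of loci. The 10 were Dnaja1, Dnajb1, Dnajb4, Dnajc15, Hsp90aa1, Hsp90ab1, Hspa1a, Hspa2, Hspa8 and Hsph1. The term takes out the gap between A and B by which the family was chosen, so these calls are a description and their p-values are not given. The SE of Hspa1a, which was listed at 0 in B7, went from 3.57 to 0.70 with the term, and that of Dnajb1 from 0.92 to 0.36. Hsph1 was among the 10 although its B libraries were level at 71.96 in PLZF- and 78.13 in PLZF+ cells. No label says that the letter pairs the libraries, and this model leaves 1 degree of freedom.

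In the authors' deposited table of Cuffdiff results, 5 of 55 members with a test had a q-value under 0.05 and were lower in PLZF+ cells by the mean of the library FPKM values, beside 3.91% of loci, and 0 were higher, beside 1.82%. They were Hsph1 (q = 0.00191), Dnajb1 and Hsp90aa1 (both q = 0.00601), Dnaja1 (q = 0.0107) and Hspa8 (q = 0.0189) in the authors' deposited table. Of these 5, Dnaja1 passed here. For Hsph1, Dnajb1 and Hsp90aa1 the subsets overlapped, since the A7 value of each lay above its B6 value. For Dnaja1 and Hspa8 they did not overlap.

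On the scale of FPKM, which divides by length, Hspa8 had the highest mean over the 4 libraries (940), followed by Hsp90ab1 (850). Hspa8 ranged from 543.7 in B7 to 1609 in A6 and Hsp90ab1 from 540.1 to 1327 in the same libraries, so their ranges overlapped. Next came Hsp90b1 (239), Hspa5 (224) and Dnaja1 (201), whose ranges overlapped as well, and then Hsp90aa1 (104) and Hspe1 (88.2). A row named Hsf1 had a mean FPKM of 316, but its deposited span takes in Dgat1 too. Its normalized counts were 0.387 to 0.466 of those of Dgat1 in every library. It is therefore not assigned to Hsf1 here, though it stays among the tested members and their counts.

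The heat shock factors had low levels, and none of their rows passed between subsets. The other row named Hsf1, the main heat shock factor (gene at chromosome 15, 76477422 to 76501913), had 57.36 and 57.32 in A6 and B6 and 47.69 and 32.92 in A7 and B7 (log2 fold change -0.52 ± 0.48, limma adjusted p = 0.60). Its deposited span is the same as that of the row set aside above, so it can hold reads of Dgat1 too. This row was equal in A6 and B6 and 1.45-fold higher in A7 than B7. An RNA level does not show the activity of the factor, and its part in the Hspa1a values was not tested. Hsf2 had 13.5 and 15.85 in A6 and B6 and 8.052 and 27.34 in A7 and B7. Of the BAG genes, Bag6, a factor of protein quality control, had 21.93 and 52.44 in A6 and B6 and 87.33 and 77.01 in A7 and B7 (log2 fold change 1.25 ± 0.52, limma adjusted p = 0.19). Bag4 had 10.12 and 14.63, then 35.81 and 29.53, and did not pass either (1.35 ± 0.68, limma adjusted p = 0.29).

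Cell markers moved with the subset comparison. Of 11 tested natural killer and innate lymphoid markers 11 were lower in PLZF+ libraries, of 7 tested plasmacytoid dendritic cell markers 5, and of 10 γδ T cell genes 10 were higher. Over all tested loci, 4.98% were lower and 2.55% higher. Siglech, a defining marker of plasmacytoid dendritic cells, had 145.1 and 90.25 in A6 and B6 and 0 in A7 and B7. B cell markers summed to at most 33 in any library, with 6 of 7 at 0 in each. The 12 macrophage and monocyte markers summed to 612 and 856 in A6 and B6 and 68 and 46 in A7 and B7, mostly from a Ly6c2 row shared with Ly6a and Ly6c1, which was lower in PLZF+ libraries. Cd68 had 21.95 in B6 and Lyz2 had 20.24 in A6, while C1qa, C1qb, C1qc, Mrc1 and Fcgr1 were at 0 in all 4. The 13 fat, stromal and endothelial markers summed to 98 and 109, then 134 and 137, mostly from Pecam1. Kdr had 13.5 in A6, and Adipoq, Plin1, Cfd, Pdgfra, Col1a1, Col1a2, Col3a1 and Dcn were at 0 in all 4. Of 32 immediate early genes, 11 were lower and 0 higher in PLZF+ libraries, beside the same shares of loci. Their part in the values of Dnaja1, Dnajc15, Hspa2 and Hsp90b1 was not tested.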

How the data were processed

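The build was mm10 and the tools were Cufflinks 1.2, Cuffdiff, HISAT 0.1.6 and SAMtools 1.2, per the submitters' processing notes. No source used here gives the annotation or the strand setting, which leaves antisense and overlapping genes inseparable. Normalized counts (signal values, each library's counts scaled by 1 factor) and FPKM were deposited by the authors from Cuffnorm, with p-values and q-values from Cuffdiff. Of the values above 0, 92.4% to 94.2% were whole reads to within 0.05, under what a count test needs. The main test was therefore not a count test, and voom on the estimated reads was run only as an alternative setting. Rows stayed as deposited. They were named through GENCODE M21 where gene and locus overlap, 1-based. Rn45s was left out.

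Loci with a mean of at least 10 were tested with limma 3.58.1 in R 4.3.3 (trend, robust, two-sided) on log2(normalized count + 1), which understates the change of low genes, and p-values adjusted by Benjamini-Hochberg were held to 0.05. The fit was tested on simulated data with the same dispersion (0.022, from well expressed loci) for all loci. It recovered 30% of 2-fold and 96% of 4-fold changes, so a member that did not pass can still differ. Since 10 mice were pooled per library, the spread behind a p-value is that between pools. Tables and figures used Python 3.11.15 with matplotlib 3.10.9, scipy 1.17.1, numpy 2.4.6 and pandas 2.3.3. Open reading frames were the longest in GENCODE transcripts.

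The members, lists and tests were chosen with earlier results of these data known. Named members were 20 fixed ones, those past the threshold, and the 8 largest differences within each subset. Other members named were chosen after their values were seen. From the fixed lists, genes with the smallest p or of known role were named, the latter also after their values were seen. One locus stood for a listed gene, that with the largest mean.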

Additional observations from a re-analysis of the deposited data

How the results depend on the processing

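No paired analysis was possible because the column names carry no replicate number; the letter term above is the nearest fit. The count of 1 member higher in PLZF+ cells became 0 with a pseudocount of 0.25, without a filter, on the FPKM table and without the trend and robust fit, and 2 by voom on the estimated reads. The count of 3 lower became 2 without a filter, on the FPKM table and by voom. It became 1 at a minimum mean of 50 and without the trend and robust fit, and 10 with the column letter as a term. Dnaja1 was not called on the FPKM table or without the trend and robust fit. Dnajc15 was not called without the trend and robust fit, and Hspa2 without a filter or by voom. At a minimum mean of 50, Dnajc15 and Hspa2 were not tested. Leaving out 1 library gave 0 higher throughout, and 0 to 2 lower (0 without A6 or B7, 1 without A7, 2 without B6). Of the within-subset counts at 4-fold, the 1 member higher in B6 than A6 became 0 with a pseudocount of 4 or a minimum mean of 50 and 5 without a filter, and the 2 higher in B7 than A7 became 0, 0 and, on the FPKM table, 1. The counts higher in A6 than B6 and in A7 than B7 stayed within 1.5 times under these settings. With voom the log2 fold change of Hspe1 was 0.08, against -0.07. Leaving out 1 library turned the sign of Hspa4 (-0.81 to 0.27), Bag1 (-1.46 to 0.27), Hsf2 (-0.79 to 0.86), Hsp90aa1 (-1.93 to 0.03), Hsp90ab1 (-1.01 to 0.05), Hspa1a (-6.05 to 0.95), Hspa1b (-4.47 to 1.82), Hspa4l (-0.30 to 2.13), Hspa5 (-0.04 to 0.15), Hspa9 (-0.06 to 0.46), Hspbap1 (-1.33 to 0.76), Hspe1 (-0.73 to 0.59) and Hsph1 (-2.77 to 0.98). The cause was not tested. Depth limits low members most, above all in the shallower PLZF- libraries. The 6 members 2-fold higher in both A libraries, a count added after seeing the data, were 5 to 7 under the alternatives run.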
